A study of Mus musculus with 12 samples.

Results

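The 43 genes described here drive or mark the mitotic cell cycle: the G1 cyclins and their kinases, the replication licensing complex, the enzymes of deoxynucleotide synthesis, and the regulators of mitotic entry, the spindle checkpoint, the spindle and the mitotic chromosomes. They were chosen by symbol, and all 43 were found among the 17397 genes counted. The data are RNA-seq counts from the hearts of male C57BL/6J mice, wild type and aged 8 weeks, in 4 groups of 3 libraries. Control mice carried the treatment label saline and were kept without exercise. Trained mice ran on a treadmill 5 days per week for 4 weeks, first through an adaptation of 1 week and then with a warm-up of 5 min at 6 m/min before 35 min at 12 m/min. Tumour mice received 100000 B16F10 cells into the tail vein from week 2, and tumour trained mice received the cells and ran. B16F10 is a mouse melanoma line derived from C57BL/6, so its transcripts map to the same genes as those of the host. The study asked how low-intensity training acts on the heart during melanoma-induced cachexia. The labels do not say whether the 3 libraries of a group came from separate mice, so p-values measure the spread between these libraries, which may be technical in part.

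Libraries held 8843909 to 13344847 counts. Levels are given as scaled CPM (counts relative to a library total that was scaled by TMM), and a single count was worth 0.0749 to 0.113 CPM of the unscaled total. The label gives heart while the extraction text names livers. Cardiac Myh6, the alpha myosin heavy chain, stood between 6520 and 37500 CPM, and Alb, the liver's albumin gene, at no more than 3.93 CPM in any library. In tumour 1 and tumour 2 the 7 melanocyte genes examined took 1.18% and 0.529% of all counts, against 0.00458% to 0.00796% in the other 10 libraries. The 14 cardiomyocyte genes took 3.61% and 8.92% in those libraries, against 13.8% to 15.1% elsewhere. Tumour 3 held 0.00767% and 14.0%. Counts of members called in the tumour group are therefore given with and without tumour 1 and tumour 2, and the plot of log2 changes shows both values for each member tested. In whole hearts, fewer cells of a type and less RNA per cell cannot be told apart.

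A dividing cell passes G1 when D cyclins with Cdk4 or Cdk6, and then E cyclins with Cdk2, phosphorylate the retinoblastoma proteins and release E2F factors. E2F factors induce the genes of DNA replication. Genes of mitosis are controlled by the DREAM complex, B-Myb and Foxm1 through elements called CHR together with CCAAT boxes bound by NF-Y. Adult cardiomyocytes have largely left the cycle, and most cycling cells of an adult heart are endothelial cells, fibroblasts and immune cells. Melanoma cells keep cycling.

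The promoter windows of the replication members and of the mitosis members held different motifs by count. RefSeq promoter windows, from 250 bases before to 50 bases after the start, were at hand for 33 members, as 35 sequences on build GRCm38.p6. They were searched on both strands for TTTGAA (the CHR core), CCAAT (the NF-Y box) and TTTNNCGC (an E2F-like site). TTTGAA was found in 11 of the 16 promoters of mitosis members, which is 68.8%, and in 1 of the 19 promoters of G1, replication and deoxynucleotide members, which is 5.26%. TTTNNCGC was found in 1 of the 16 (6.25%) and in 9 of the 19 (47.4%). CCAAT was frequent in each set, at 87.5% and 57.9%. Among all 32851 promoter windows taken from RefSeq, 17.9% held TTTGAA, 37.4% CCAAT and 5.17% TTTNNCGC. A match describes these letters only.

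**Figure D1:**
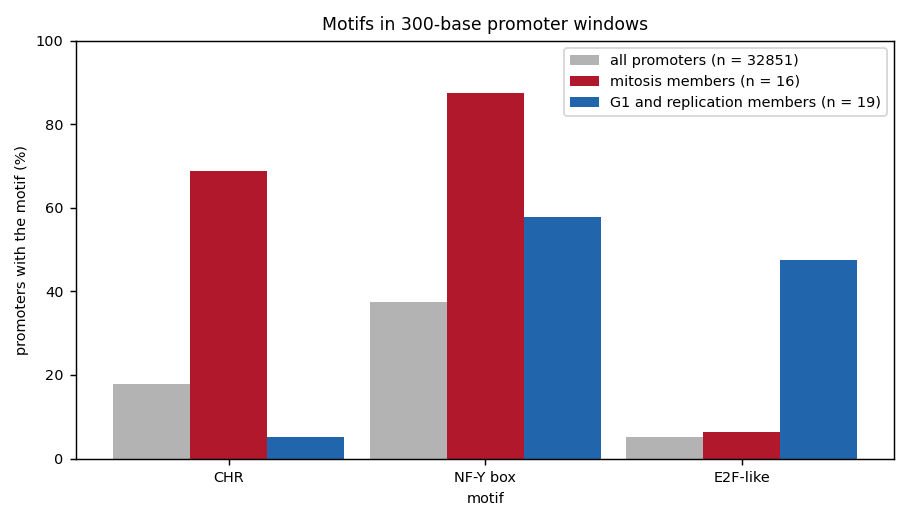
Share of RefSeq promoter windows (y axis, %) that hold each of 3 motifs (x axis) on either strand, for all 32851 promoters (grey), 16 promoters of mitosis members (red) and 19 promoters of G1, replication and deoxynucleotide members (blue). The CHR stands at 68.8% in the mitosis set and 5.26% in the other, and the E2F-like motif at 6.25% and 47.4%.

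Below are 5 of the promoters with the most distinct motifs and then the most matches, where Ccnb2, Mcm3 and Mcm5 were taken in alphabetical order from 6 genes that tie at 2 motifs and 5 matches, the others being Mcm6, Mcm7 and Mki67. They are shown because they hold the motifs that the counts above compare, and expression levels were no part of that rule. They are printed 5′ to 3′ on the strand of the gene, with the matches on either strand in capitals. Cdk1, the kinase that starts mitosis, lies at chr10:69352863-69353162 on the minus strand and is the only one with all 3 motifs. Top2a, the topoisomerase that untangles replicated chromosomes, lies at chr11:99024140-99024439 on the minus strand. Ccnb2, a mitotic cyclin, lies at chr9:70421505-70421804 on the minus strand. Mcm3 (chr1:20820263-20820562, minus) and Mcm5 (chr8:75109259-75109558, plus) encode subunits of the replicative helicase. In Mcm5 the long run of capitals is 2 overlapping TTTNNCGC matches, 1 on each strand.
Cdk1: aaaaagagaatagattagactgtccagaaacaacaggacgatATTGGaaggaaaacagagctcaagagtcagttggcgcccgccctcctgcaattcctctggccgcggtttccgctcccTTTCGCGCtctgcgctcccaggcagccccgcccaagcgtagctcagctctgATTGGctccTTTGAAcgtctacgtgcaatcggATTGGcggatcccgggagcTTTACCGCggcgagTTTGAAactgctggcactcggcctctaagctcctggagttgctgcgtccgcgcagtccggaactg
Top2a: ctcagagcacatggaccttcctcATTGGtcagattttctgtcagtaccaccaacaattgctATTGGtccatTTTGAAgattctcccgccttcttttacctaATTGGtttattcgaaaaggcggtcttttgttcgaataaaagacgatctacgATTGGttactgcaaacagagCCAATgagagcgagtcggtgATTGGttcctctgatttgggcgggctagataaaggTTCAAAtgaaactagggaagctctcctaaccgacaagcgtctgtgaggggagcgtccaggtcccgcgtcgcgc
Ccnb2: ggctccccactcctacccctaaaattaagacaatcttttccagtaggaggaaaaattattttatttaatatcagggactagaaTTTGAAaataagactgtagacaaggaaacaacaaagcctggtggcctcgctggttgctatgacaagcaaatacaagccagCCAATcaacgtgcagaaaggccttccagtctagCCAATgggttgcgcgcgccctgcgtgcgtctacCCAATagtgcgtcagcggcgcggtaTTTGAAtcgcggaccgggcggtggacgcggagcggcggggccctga
Mcm3: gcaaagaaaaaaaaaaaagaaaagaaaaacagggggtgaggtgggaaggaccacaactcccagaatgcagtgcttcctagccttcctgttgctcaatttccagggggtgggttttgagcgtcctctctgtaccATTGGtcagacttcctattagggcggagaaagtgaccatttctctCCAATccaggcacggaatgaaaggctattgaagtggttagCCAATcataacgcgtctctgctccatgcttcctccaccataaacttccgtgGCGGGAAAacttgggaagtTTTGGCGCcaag
Mcm5: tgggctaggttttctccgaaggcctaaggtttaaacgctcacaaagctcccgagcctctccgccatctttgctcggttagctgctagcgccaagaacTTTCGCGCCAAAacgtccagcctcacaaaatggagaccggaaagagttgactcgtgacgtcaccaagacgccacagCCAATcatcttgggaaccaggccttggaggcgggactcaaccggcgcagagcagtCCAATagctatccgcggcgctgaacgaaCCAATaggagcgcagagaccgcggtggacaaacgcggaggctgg

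Tumour hearts had higher counts of most members than control hearts, and the rise came with 2 of the 3 libraries. Mki67, the proliferation marker that coats mitotic chromosomes, stood at 1.34, 0.487 and 0.736 CPM in control hearts and at 184, 34.0 and 1.20 CPM in tumour 1, 2 and 3. Top2a stood at 1.91, 1.36 and 2.10 CPM in control hearts and at 260, 82.4 and 1.38 CPM in the tumour hearts. In both genes tumour 1 and 2 lay far above every control and tumour 3 lay within the control range. Over the 43 members together the share of counts was 0.0530% to 0.0585% in control hearts, 0.557% in tumour 1, 0.229% in tumour 2 and 0.0463% in tumour 3. The last was the lowest of the 12 libraries. Without the 3 D cyclins it was 0.0249% in tumour 3 and 0.0258% to 0.0265% in control hearts.

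**Figure D2:**
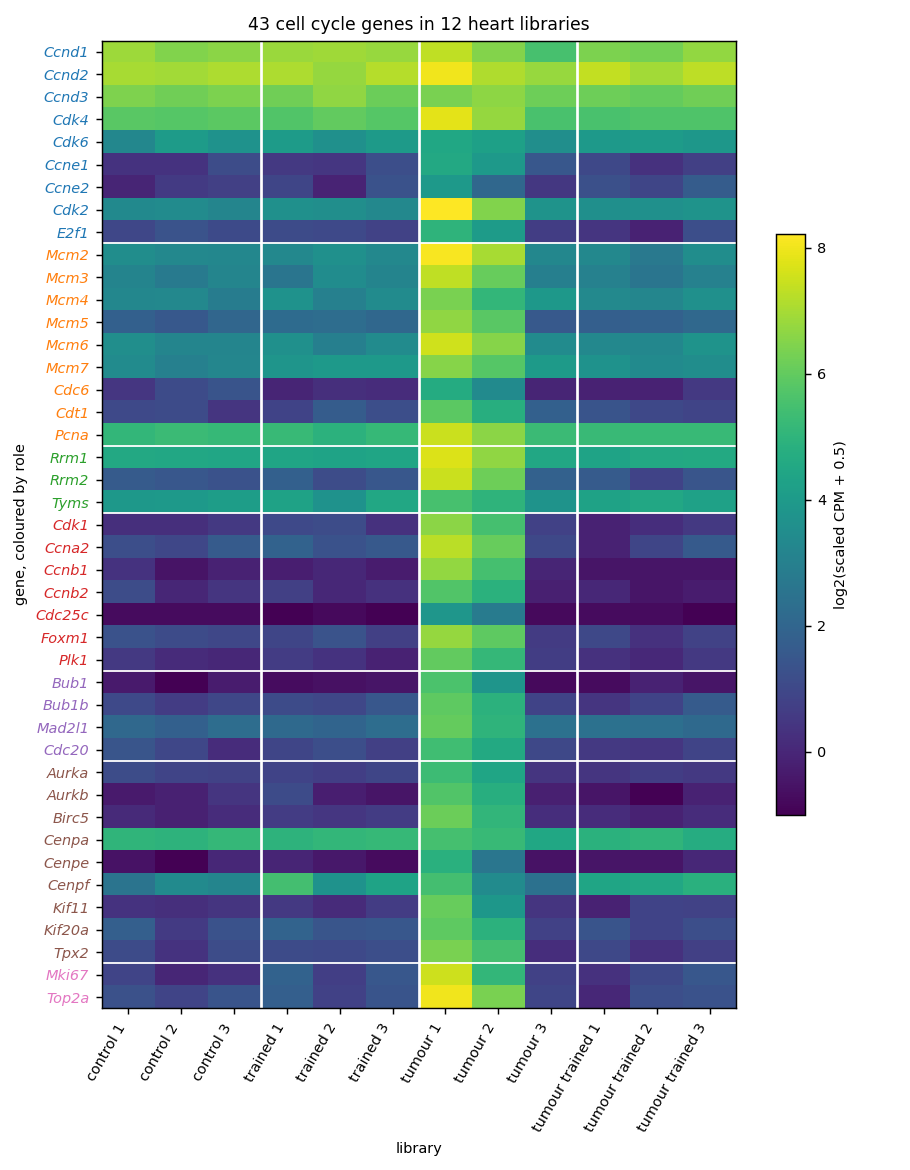
Levels of the 43 members (rows, names coloured by role from G1 at the top to mitotic chromosomes at the bottom) in the 12 libraries (columns), as log2(scaled CPM + 0.5). Tumour 1 and tumour 2 stand out in nearly every row below the D cyclins, and tumour 3 resembles the 9 libraries of the other groups.

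In the fit across 12 libraries, edgeR's quasi-likelihood test with Benjamini-Hochberg adjustment over all 12778 genes tested called 29 members higher and 0 lower in tumour than in control hearts. Of all genes tested, 5.33% were called higher and 1.46% lower. A filter on low counts passed 39 of the 43 members. Ccnb1, Cdc25c, Bub1 and Cenpe did not pass it, because they lay near 0 outside tumour 1 and 2. The median log2 change was 3.78 over the 39 and 0.11 over all genes. Tyrp1, a pigment enzyme, had 0 counts in every control, trained and tumour trained heart and 3670, 1510 and 1.38 CPM in the tumour hearts. The 6 macrophage markers took 0.0362% and 0.0572% of counts in tumour 1 and 2, against 0.0281% to 0.0359% in control hearts. The 4 neutrophil markers took 0.000427% and 0.00217%, against 0.000166% to 0.000426%. For the 6 fibroblast markers the shares were 0.0667% and 0.119%, against 0.0631% to 0.0875%. For the 8 endothelial markers they were 0.0485% and 0.110%, against 0.140% to 0.141%. The part of these cell types in the members' values was not tested. By single libraries, 41 of the 43 members lay above all 3 controls in tumour 1 and in tumour 2, which is 95.3%, and 38.4% of all genes did so. The exceptions were Ccnd1 and Ccnd3. All 29 calls lay at adjusted p between 0.0390 and 0.0467. The count was 0 when any 1 control, trained or tumour trained library or tumour 2 was left out, 9 without tumour 1 (1.55% of all genes) and 39 without tumour 3 (53% of all genes). In the fits with 0 calls the median log2 change of the members tested was 3.71 to 3.90. All but the fit without tumour 2 tested 43 members, with Ccnb1, Cdc25c, Bub1 and Cenpe, against 39 in the main fit.

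Of the 9 G1 genes listed, 3 were called higher. Ccne1, the E cyclin that with Cdk2 commits a cell to S phase, stood at 0.766, 0.779 and 1.68 CPM in control hearts and at 23.3, 15.3 and 2.31 CPM in tumour hearts. All 3 tumour values lay above the controls, with a log2 change of 3.67 ± 0.72 (SE, adjusted p = 0.0390 by edgeR). E2f1, the activating transcription factor of the G1/S genes, stood at 1.44, 2.04 and 1.58 CPM in control and at 31.0, 16.1 and 1.11 CPM in tumour hearts, a log2 change of 3.25 ± 0.85 (adjusted p = 0.0467 by edgeR). Tumour 3 lay below the controls. Cdk2 stood at 9.96, 10.3 and 8.62 CPM in control and at 296, 89.0 and 12.8 CPM in tumour hearts. Its RefSeq gene overlaps Pmel, a melanosome matrix gene at 1820, 897 and 2.03 CPM in the tumour libraries, and no strand setting is stated, so reads from the overlap cannot be assigned with certainty. The ratio of tumour 1 to tumour 2 after subtracting the control mean was 3.61 for Cdk2 and 2.03 for Pmel.

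The D cyclins, which carry growth factor signals into G1, were abundant in every heart. Per kilobase of transcript, Ccnd3, Cdk4, Ccnd1, Pcna, Cenpa and Ccnd2 led the members in control hearts, with 38.1, 27.7, 27.0, 23.8, 22.2 and 20.2 CPM per kb. In tumour 1 the order was led by Cdk2 at 123, Pcna at 118, Cdk4 at 112, Mcm2 at 81.6 and Rrm2 at 80.3 CPM per kb. Ccnd1 stood at 117, 87.8 and 96.8 CPM in control and at 161, 89.4 and 45.2 CPM in tumour hearts, so the groups overlapped (log2 change -0.03 ± 0.34, adjusted p = 0.958 by edgeR). Relative to heart muscle genes, that change was 1.83, on a scale that moves the median of all genes to 1.55. Ccnd2 stood at 122 to 135 CPM in control hearts and at 255, 137 and 109 CPM in tumour hearts (0.38 ± 0.27). Ccnd3 stood at 73.2 to 85.9 CPM in control and at 81.1, 98.6 and 71.7 CPM in tumour hearts (0.06 ± 0.17). Their partner Cdk4 stood at 54.2 to 58.4 CPM in control and at 230, 108 and 47.5 CPM in tumour hearts, and its log2 change of 1.18 ± 0.40 did not pass (adjusted p = 0.0787 by edgeR). Cdk6, its paralogue, had a log2 value of 0.44 and Ccne2 one of 2.95, and neither passed.

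Of the 9 genes of replication licensing 8 were called higher. The helicase subunits Mcm2 to Mcm7, the loader Cdt1 and the sliding clamp Pcna were called at log2 changes from 1.54 (Pcna) to 4.45 (Cdt1). Mcm2 stood at 11.0, 9.44 and 9.04 CPM in control and at 275, 129 and 9.05 CPM in tumour hearts. Mcm5, whose promoter is printed above, stood at 3.06, 2.43 and 3.58 CPM in control and at 101, 58.0 and 2.49 CPM in tumour hearts. In both subunits tumour 3 lay within the control range. Mcm7 differed, at 10.5, 7.49 and 8.83 CPM in control and 92.8, 54.9 and 15.8 CPM in tumour hearts, with all 3 tumour libraries above the controls. Cdc6, the loader that recruits the helicase, stood at 0.862, 1.65 and 2.10 CPM in control and at 25.2, 10.2 and 0.462 CPM in tumour hearts (2.96 ± 0.91, adjusted p = 0.0647 by edgeR). Of the deoxynucleotide enzymes, both ribonucleotide reductase subunits were called. Rrm2, the subunit limited to S phase, rose by 5.17 on the log2 scale and stood at 2.59, 2.34 and 2.00 CPM in control and at 176, 71.6 and 3.14 CPM in tumour hearts. Rrm1, its stable partner, rose by 2.33. Tyms, the thymidylate synthase, had a log2 value of 0.96 that did not pass (adjusted p = 0.101 by edgeR).

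The largest log2 changes among the members tested were those of mitotic genes, Mki67 at 6.40, Birc5 at 6.01 and Top2a at 5.99, against control means of 0.854, 0.532 and 1.79 CPM. All 5 tested genes of mitotic entry, of 7 listed, were called higher at 4.70 to 5.95. Cdk1 stood at 0.670, 0.681 and 0.946 CPM in control and at 98.0, 44.1 and 1.20 CPM in tumour hearts, a log2 change of 5.95 ± 1.15 (adjusted p = 0.0390 by edgeR). Its cyclin Ccna2 reached 154 CPM in tumour 1 and 66.7 CPM in tumour 2, against at most 2.63 CPM in control hearts, and was at 1.48 CPM in tumour 3. Ccnb1, the main mitotic cyclin, stood at 106, 45.0 and 0.462 CPM in tumour hearts and at most at 0.766 CPM in control hearts. Without the filter its log2 change was 6.70 and the other 3 members it had removed changed by 5.52 to 6.59, all with adjusted p of 0.0312 to 0.0360 by edgeR. Foxm1, the transcription factor of the mitotic genes, stood at 108, 59.6 and 1.02 CPM in tumour hearts and at 1.47 to 2.01 CPM in control hearts. Plk1, a kinase of mitotic entry, stood at 62.7, 34.4 and 1.11 CPM against at most 0.957 CPM in control hearts.

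All 3 tested checkpoint genes of 4 listed were called: Bub1b (4.48), which holds anaphase back, Mad2l1 (3.16), its partner in the checkpoint complex, and Cdc20 (3.93), the activator that ends the block. Of 9 spindle and kinetochore genes 6 were called. The passenger kinase Aurkb (5.70) and its partner Birc5 (6.01) had larger values than the spindle pole kinase Aurka (3.80), and with SEs of 1.32, 1.17 and 0.90 the values are not separated. Cenpa, the centromeric histone, was high in every heart, at 30.8 to 34.3 CPM in control and at 44.2, 36.5 and 21.8 CPM in tumour hearts (0.08 ± 0.22). Cenpf, of the outer kinetochore, had a log2 value of 1.30 ± 0.68 that did not pass. Both chromosome genes, Mki67 (6.40 ± 1.36) and Top2a (5.99 ± 1.28), were called (adjusted p = 0.0390 each by edgeR).

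**Figure D3:**
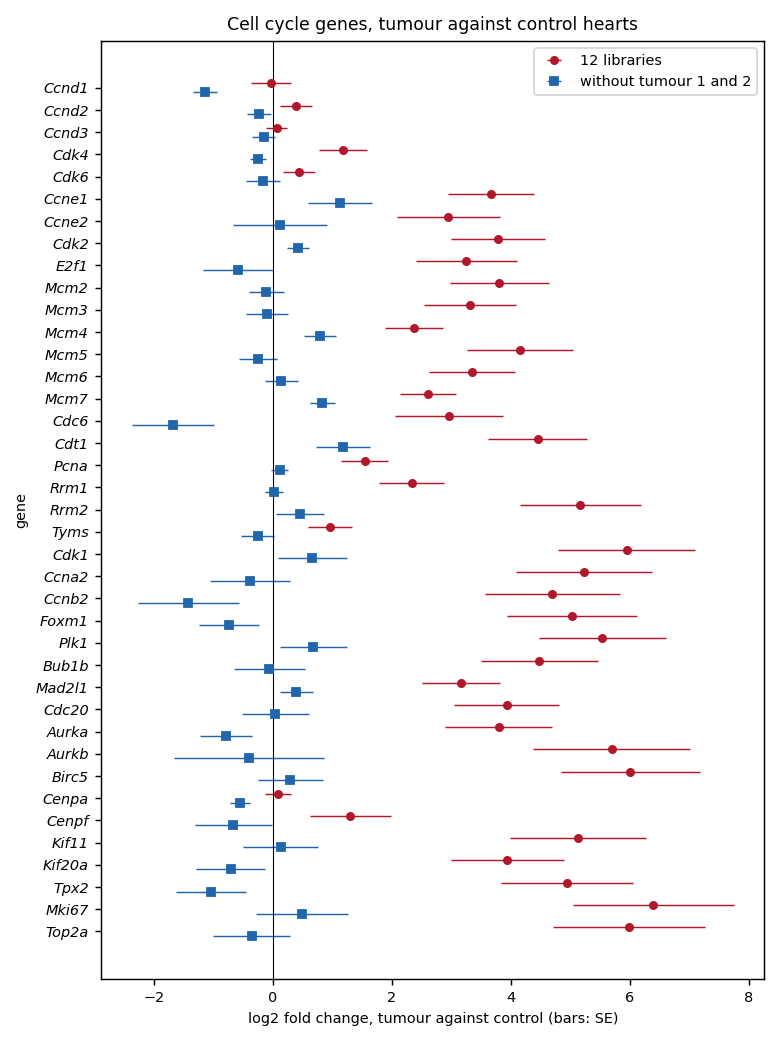
Log2 fold change of tumour against control hearts (x axis, bars are SE) for the 39 members that passed the filter (y axis), in the edgeR fit of 12 libraries (red circles) and in the fit without tumour 1 and tumour 2 (blue squares). The red points have a median of 3.78 and the blue points a median of -0.11.

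The excess of tumour 1 over tumour 2 was compared between the members and the melanocyte genes. After subtracting the control mean, the ratio of tumour 1 to tumour 2 had a median of 2.23 over the 34 members that reached 4 times the control mean in each library, with a range of 1.56 to 5.53. The 6 melanocyte genes that met the same condition, among them Pmel, Tyrp1 and Tyr of pigment synthesis, had a median of 2.31 and a range of 1.39 to 2.56, and 9 of the 34 members lay above that range. Mitf, the melanocyte transcription factor, did not meet the condition, at 2.65 times the control mean in tumour 2, and had a ratio of 4.09. With Mitf the melanocyte range reaches 4.09, and of the 34 members only Mki67, Cenpe, Ccne2 and Kif11 lay above that. The condition uses the same tumour values as the ratio, so the ranges depend on it. Among the members it left out were Cenpf (14.5) and Cdk4 (3.39), and also Tyms (1.89) and Cdk6 (1.58). The 79 other cell cycle genes that met the same condition had a median of 2.32. The members nonetheless differed among themselves. Mki67 had a ratio of 5.53, Cenpe 5.24, Ccne2 5.04 and Kif11 4.92, while Mcm7, Plk1 and Ccnb2 had 1.82, 1.84 and 1.82. The 30 members with transcripts shorter than 5000 bases had a median of 2.16 and the 4 longer ones one of 4.22. Across the 34 members Spearman's rho of the ratio was -0.67 with the GC content of the transcript and 0.47 with its length, and length gave 0.16 over the 79 other cell cycle genes and 0.09 over all 12517 genes at 1 CPM or more on average. These points share 2 libraries. Across the 79 other cell cycle genes rho with GC was -0.70, and across the 12517 genes it was -0.34. The part of base composition in these ratios was not tested.

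**Figure D4:**
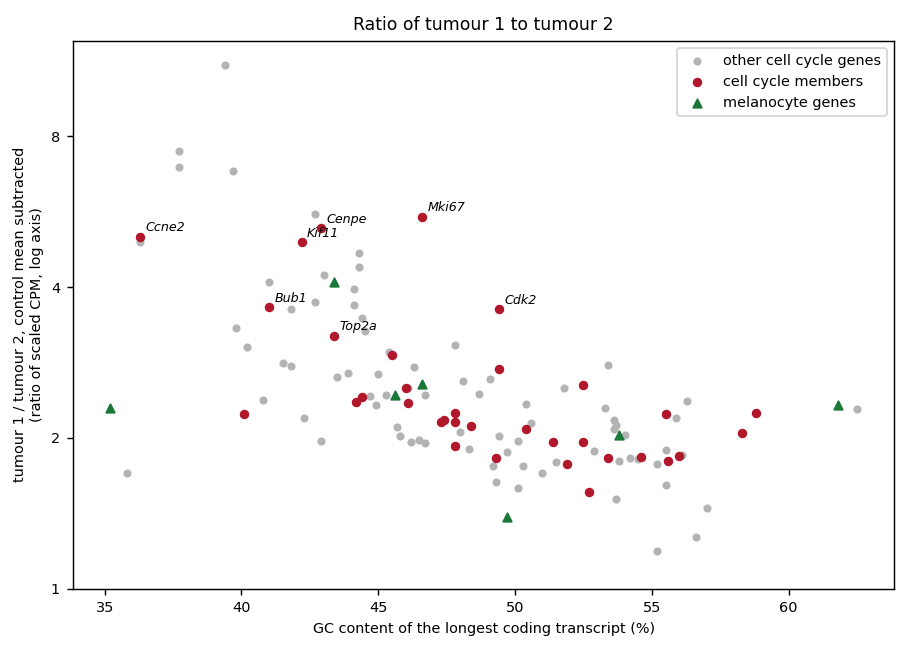
Ratio of tumour 1 to tumour 2 in scaled CPM after subtracting the control mean (y axis, log scale) against the GC content of the longest coding transcript (x axis, %), for 34 members (red), 79 other cell cycle genes (grey) and 7 melanocyte genes (green triangles). Mki67 at 46.6% GC has the highest member ratio, 5.53, and members above 50% GC stay between 1.56 and 2.55.

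Tumour 3 differed from the other tumour libraries. Its 4 pigment genes Pmel, Tyrp1, Mlana and Tyr summed to 4.24 CPM, against 6130 CPM in tumour 1, 2670 CPM in tumour 2 and 0.105 to 0.706 CPM in the 9 libraries of the other groups. That is 0.0692% of tumour 1. The same share of any member's excess in tumour 1 would be at most 0.198 CPM. In tumour 3, 3 counts are worth 0.277 CPM. This scaling assumes the proportions of tumour 1, and the part of melanoma cells in the members' values of tumour 3 was not tested. Against the 3 controls, 10 members lay above all of them in tumour 3 (23.3%, against 31.9% of all genes) and 14 below all of them (32.6%, against 29% of all genes). Those shares are near the background, so the members' count in tumour 3 is no result about them. The 10 above were Ccne1, Cdk2, Mcm4, Mcm7, Cdt1, Rrm2, Cdk1, Plk1, Mad2l1 and Birc5. All 10 were also above in tumour 1 and 2, where 41 of the 43 members lay above the controls. The members' share above controls in all 3 tumour libraries (23.3%, against 14.2% of all genes) therefore adds nothing about tumour 3.

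Without tumour 1 and tumour 2 the edgeR fit rests on tumour 3 as the sole tumour library, assumed to vary like the other groups. It called 0 members higher and 1 lower than control, where 0.87% and 0.531% of all 12995 genes tested were called. The median over the 39 members was -0.11, against 0.02 over all genes. The member called was Ccnd1, at 45.2 CPM in tumour 3 and 78.2 to 119 CPM in the 9 libraries of the other groups, so that tumour 3 stood lowest. Its log2 change was -1.14 ± 0.20 (adjusted p = 0.0214 by edgeR), between -1.11 and -1.17 under the other scalings, and it lost its call without control 3 (adjusted p = 0.0562 by edgeR). Ccnd1 counts were fractional, and its RefSeq gene overlaps LTO1. The other D cyclins also lay below the controls in tumour 3, as did 29% of all genes, without passing the test. Ccnd2 had a log2 value of -0.23 ± 0.20 and Ccnd3 of -0.16 ± 0.20. Tumour 3 was not the lowest library for either. Ccnd2 stood at 109 CPM in tumour 3 and at 107 CPM in trained 2. Ccnd3 stood at 71.7 CPM in tumour 3 and at 65.5 CPM in tumour trained 2. The 8 endothelial markers took 0.126% of counts in tumour 3 and 0.140% to 0.141% in control hearts, and the 6 fibroblast markers 0.0819% against 0.0631% to 0.0875%. The part of these cell types in the Ccnd1 value was not tested.

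Of the members above the controls in tumour 3, Mcm7 came nearest to the threshold, with a log2 value of 0.83 ± 0.21 (adjusted p = 0.0866 by edgeR). Mcm4 had 0.79 ± 0.27, Cdt1 1.18 ± 0.45 and Ccne1 1.12 ± 0.54, with adjusted p of 0.223, 0.286 and 0.431. Mcm4 and Mcm7 were called when trained 2 was also left out, a setting that raised the calls over all genes from 182 to 751. Proliferation markers gave values on either side of 0: Mki67 0.49 ± 0.77, Top2a -0.36 ± 0.65, Cdk1 0.66 ± 0.58 and Ccnb2 -1.43 ± 0.85. In tumour 3 these values rest on 13, 15, 13 and 4 counts, and a change of the size of their SE was not detectable.

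**Figure D5:**
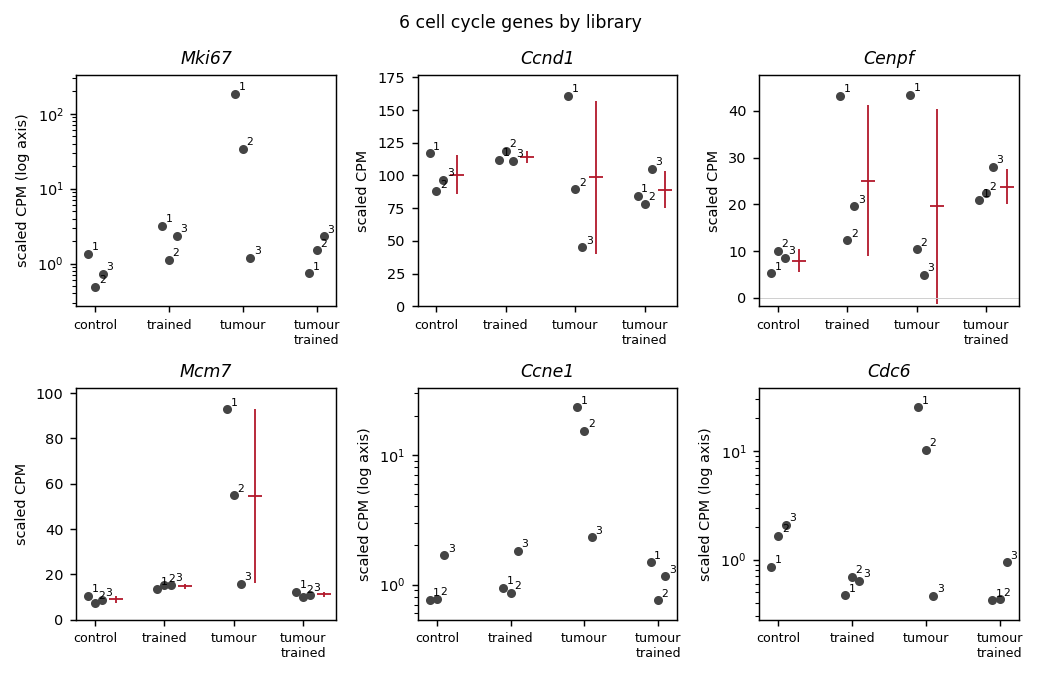
Scaled CPM of 6 members in each library (points, numbered by replicate) by group, with mean ± SD (red) in the panels with a linear axis; Mki67, Ccne1 and Cdc6 have log axes. Tumour 3 is the lowest library for Ccnd1 at 45.2 CPM and the highest outside tumour 1 and 2 for Mcm7 at 15.8 CPM, and the tumour trained hearts hold Cenpf at 20.9 to 28.0 CPM.

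Tumour trained hearts had lower counts of most members than tumour hearts, and this rests on the same 2 tumour libraries. Against tumour hearts, tumour trained hearts had 30 members lower and 0 higher, where 7.25% and 1.79% of all genes were called. The median log2 change was -3.97 over the 39 members and -0.04 over all genes. This comparison shares the tumour libraries with the former. Mki67 stood at 0.739, 1.51 and 2.31 CPM in tumour trained hearts, below tumour 1 and 2 and around tumour 3 at 1.20 CPM (-5.58 ± 1.29, adjusted p = 0.0357 by edgeR). Ccnb1 stood at 0.210 to 0.216 CPM in tumour trained hearts, below all 3 tumour hearts. Against tumour 3 that is 2 counts in each tumour trained heart and 5 counts, too few to show a difference. Cdc6, at 0.422, 0.431 and 0.947 CPM, was called lower here. The D cyclins, Cdk4, Cdk6, Ccne2, Tyms, Cenpa and Cenpf did not pass. By single libraries 11 members, 25.6%, were lower in every tumour trained than in every tumour heart, and 14.5% of all genes were. The count of calls was 0 without any 1 control or tumour trained library, trained 1, trained 3 or tumour 2. In those fits the median log2 change of the members tested was -4.13 to -3.97. All of them but the fit without tumour 2 tested 43 members, against 39 in the main fit. The count was 33 without trained 2 (9.34% of all genes), 2 without tumour 1 (0.864%) and 38 without tumour 3 (49.8%). Without tumour 1 and tumour 2 it was 0, where 0.123% of all genes were called higher and 0.593% lower, with 5 members at unadjusted p below 0.05. Other fits without those 2 libraries called members higher in tumour trained hearts. Ccnd1 was called when scaled to cardiomyocyte genes (0.631% of all genes) and without control 1 (0.804%), Cenpf without trained 1 (0.647%), and both by DESeq2 (2.05%). Ccnd1, Cenpf and Tyms were called without trained 2 (11.8%).

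No tumour trained heart showed the pigment genes above 0.525 CPM. Against control and against trained hearts, edgeR's fit of 12 libraries called 0 members, as it called 0% of all genes in each comparison. At unadjusted p below 0.05 there was 1 member (Cenpf) against control and 0 against trained hearts, and DESeq2 called 0 in both (0.0682% and 0.0173% of all genes). A fit without tumour 1, tumour 2 and trained 2 called Ccne2, Tyms and Cenpf higher than in control hearts, and 21.8% of all genes. By single libraries 8 members lay below all trained hearts (18.6%, against 8.05% of all genes) and 1 above (2.33%, against 7.9%). Those below were Ccnd1, Cdk4, Mcm7, Ccnb1, Aurka, Birc5, Kif20a and Tpx2, and Pcna lay above. Ccnb1 rested on 2 counts in each tumour trained heart and on 3 to 6 counts in trained hearts. Against control hearts 4 members lay above (9.3%, against 21.9%) and 2 below (4.65%, against 17.4%). Mki67 had a log2 value of 0.82 against control, with a 95% interval of -2.59 to 4.23, and Top2a one of -0.30 (-3.49 to 2.89). For the abundant members the intervals were narrower: Ccnd2 had 0.21 (-0.42 to 0.84) and Pcna 0.03 (-0.86 to 0.92).

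Against control hearts edgeR's fit of 12 libraries called 0 members in trained hearts, with 0% of all genes called, 1 member at unadjusted p below 0.05, and 0 members by DESeq2 (0.0115% of all genes). A fit without tumour 1, tumour 2 and trained 2 called Mcm7, Cenpf and Mki67 higher in trained hearts, and 11.5% of all genes. In trained hearts 4 members lay above all controls, Mcm5, Mcm7, Birc5 and Cenpf (9.3%, against 4.04% of all genes). Another 3 lay below all controls, Cdc6, Rrm1 and Cdc25c (6.98%, against 5.44%). For Cdc25c this rests on 1 count in each control and 0, 1 and 0 counts in trained hearts, so it separates nothing. Mcm7 stood at 13.5, 15.2 and 15.4 CPM in trained hearts and at 7.49 to 10.5 CPM in control hearts (log2 0.72 ± 0.46). Cdc6 stood at 0.471, 0.694 and 0.638 CPM, below the control range of 0.862 to 2.10 CPM (-1.32 ± 1.06). Mki67 was at 3.18, 1.13 and 2.34 CPM, overlapping the controls (1.33, with a 95% interval of -1.95 to 4.60). The test of whether the tumour effect differs with training called 0 members, with 0.0235% of all genes called, all of them lower. At unadjusted p below 0.05 there were 30 members, a count given without the share of all genes at that threshold. At adjusted p below 0.05 DESeq2 called 27 lower (1.99% of all genes), and edgeR called 36 without tumour 3 (30.1%). Without tumour 1 and 2 edgeR called 0 members, where 0.0462% of all genes were higher and 0.2% lower, with 5 members at unadjusted p below 0.05. The median of the members was then -0.06, against -3.79 with all libraries.

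The Cenpf levels of mice that ran lay above those of all controls, and the main test did not call the difference. Cenpf, a large kinetochore protein, stood at 5.27, 10.1 and 8.62 CPM in control hearts, 43.2, 12.3 and 19.6 CPM in trained hearts, and 20.9, 22.4 and 28.0 CPM in tumour trained hearts. All 6 libraries of mice that ran lay above all 3 controls. Of all genes, 4.04% lay above all controls in trained hearts and 21.9% in tumour trained hearts. The share that did so in all 6 libraries was not counted. In tumour hearts it stood at 43.4, 10.4 and 4.98 CPM. The log2 values were 1.64 ± 0.68 in trained and 1.57 ± 0.68 in tumour trained against control hearts, with adjusted p of 1.00 and 0.766 by edgeR. A fit of the tumour trained and control libraries alone called it (1.56, adjusted p = 0.00239 by edgeR), together with Tyms (0.36, adjusted p = 0.0448 by edgeR). That is 2 of 32 members tested, in a fit that called 20.4% of all genes. Without tumour 1 and 2, DESeq2 called Cenpf in both comparisons, with adjusted p of 0.0139 and 0.00349, where it called 0.392% and 3.7% of all genes. Its transcript has 11130 bases and 43.3% GC. Library by library, Spearman's rho between each gene's deviation and its GC content over 12517 genes was -0.51, 0.56 and -0.55 in trained, -0.52, -0.57 and -0.63 in tumour trained, and 0.15, -0.39 and 0.19 in control hearts. Trained 2, the library with the positive rho, had the lowest Cenpf level of the 6, at 12.3 CPM, and it was above the controls. The part of base composition in the Cenpf values was not tested.

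A list of 112 other cell cycle genes was counted in the same way. Of all genes, 5.33% were called higher and 1.46% lower in tumour against control hearts. In tumour trained against tumour hearts 7.25% were called lower and 1.79% higher. The 78 of the list that passed the filter gave 50 higher and 0 lower in tumour against control hearts (median log2 2.46). They gave 55 lower and 0 higher in tumour trained against tumour hearts (median -2.46). None was called in the other 3 pairwise comparisons or in the interaction, and without tumour 1 and 2 none was called in either tumour comparison. At unadjusted p below 0.05 those 2 fits held 7 and 6 genes. By the smallest p, Cdca3, a trigger of mitotic entry, rose by 5.93, the flap nuclease Fen1 by 2.17, the centromere protein Cenpn by 3.79 and the tubulin-binding Stmn1 by 1.83 in tumour hearts. Stmn1 stood at 75.9, 42.6 and 18.5 CPM in tumour and at 12.4 to 13.6 CPM in control hearts, with tumour 3 also above the controls. Pttg1 and Gmnn were lower in tumour 1 and 2 than the control mean. Pttg1 had a control mean of 62.7 CPM per kb and stood at 22.7, 32.9 and 65.1 CPM per kb in tumour hearts. Gmnn had a control mean of 30.0 CPM per kb and stood at 16.9, 20.4 and 36.0 CPM per kb in tumour hearts. In tumour trained against tumour hearts Stmn1 fell by 2.03, the primase subunit Prim2 by 3.19, the kinesin Kif22 by 5.75 and the passenger scaffold Incenp by 3.15. Sgo2a, which protects centromeric cohesion, and the condensin subunit Smc4 had values like those of Cenpf. Sgo2a stood at 2.01, 3.70 and 5.05 CPM in control, 13.0, 4.60 and 12.3 CPM in trained and 8.66, 14.3 and 10.5 CPM in tumour trained hearts, with 40.5% GC. Neither gene passed in these comparisons, and trained 2 overlapped the controls in both.

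CDK inhibitors and pocket proteins restrain the cycle. Of 10 such genes 8 passed the filter and 0 were called in tumour against control hearts. At unadjusted p below 0.05 there were 4, a count given without the share of all genes at that threshold. Cdkn1c, which encodes a CDK inhibitor, had a control mean of 13.9 CPM per kb. It stood at 2.49, 4.69 and 10.7 CPM per kb in tumour hearts. Rbl1, the pocket protein that is itself an E2F target, stood at 39.2, 17.0 and 2.95 CPM in tumour and at 3.50 to 4.63 CPM in control hearts (2.29 ± 0.64, adjusted p = 0.0529 by edgeR), and without tumour 1 and 2 its log2 value was -0.44 ± 0.29. Cdkn2a was at or under 0.209 CPM in every library, also where melanocyte genes were high. Cdkn1a, which encodes the p21 inhibitor, was the one gene of this list called in tumour trained against tumour hearts. It stood at 185, 132 and 199 CPM in tumour, 14.3, 33.7 and 36.8 CPM in tumour trained, 60.5, 109 and 148 CPM in control and 35.2, 50.7 and 51.3 CPM in trained hearts. The groups of the test did not overlap (-2.61 ± 0.39, adjusted p = 0.0357 by edgeR), and Cdkn1a kept its call without tumour 1 and 2 (-2.84 ± 0.45, adjusted p = 0.0148 by edgeR).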

How the data were processed

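RNA-seq gene counts of 12 mouse heart libraries were used, 3 in each of 4 groups taken from the titles. The authors deposited 1 table of expected counts per gene, with 7.09% to 8.92% of values not whole. The notes of the submitters name the aligner HISAT2 2.2.1, the counter featureCounts and 2 builds, GRCm39 and mm10 (per the submitters' processing notes). The build behind the table, its strand setting and its annotation: not given in the sources used here. Symbols came from the table, and 17288 IDs were found in RefSeq. Estimated counts as deposited were rounded. In edgeR 4.0.16 (R 4.3.3) the counts were scaled by TMM, filtered with filterByExpr by group (12778 genes passed, 4619 did not), and fitted with a quasi-likelihood model of group over 12 libraries with 8 residual degrees of freedom. Contrasts were adjusted by Benjamini-Hochberg over all genes tested and called below 0.05. Counts at unadjusted p below 0.05 are given without the share of all genes at that threshold, so they are no result about the members or lists. SEs were derived from the log2 change and its F statistic. Library pairs of a group differed in counts by more than sampling noise (chi-square per gene 3.67 to 369.52). The scripts were checked on simulated counts. Transcript lengths and GC came from GENCODE's GRCm38 annotation, promoters from RefSeq.

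Named genes are all 43 members, and of the other cell cycle genes the 4 with the smallest p in each comparison and any called without tumour 1 and 2. Pttg1, Gmnn, Cdkn1c, Rbl1 and Cdkn2a are named outside that rule. Members and lists were chosen with earlier results of these data known. Alternatives were DESeq2 1.42.0, 3 other scalings, 2 other filters, robust dispersion, a replicate block, fits of only the groups compared, and leaving out libraries. The 95% intervals printed are of edgeR log2 changes and hold the spread between libraries. They were built from the SE with the t distribution at 8 degrees of freedom, so they need not match the p-values of edgeR's test.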

Additional observations from a re-analysis of the deposited data

How the results depend on the processing

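In tumour against control hearts 29 members were called. DESeq2 called 36 (17.8% of all genes), library size alone 31 (15.4%), scaling to cardiomyocyte genes 39 (71.6%), no filter 33 (6.7%) and a stricter filter 23 (5.61%). A fit of only the groups compared called 0 with a median log2 of 3.46, and leaving out 1 library at a time gave 0 to 39. Without tumour 1 and 2 the count was 1, and it was lower. In tumour trained against tumour hearts 30 were called, 0 in a fit of only the groups compared, 0 to 38 leaving out 1 library, and 0 without tumour 1 and 2. A fit of only the groups compared called 2 in tumour trained against control hearts, where 20.4% of all genes were called. For the interaction DESeq2 called 27, leaving out 1 library gave 0 to 36, and without tumour 1 and 2 the count was 0. The causes were not tested.

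Titles share replicate numbers. With the replicate number as a block, 0 members were called in tumour against control and 0 in tumour trained against tumour hearts, with median log2 changes of 3.44 and -3.65. Of 18 same-number pairs of libraries 3 had deviations correlated above 0.1 (r from -0.268 to 0.241), and 3 of 12 libraries correlated best with their own number. These values show no pairing by number but cannot exclude it, because deviations from a mean of 3 libraries hold every other difference between them.

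Signs that turned are counted here only where a value was called in 1 of the fits. Scaled to cardiomyocyte genes, Ccnd1 in tumour against control hearts was 1.83. Library size alone moved the median of all genes to 0.32 in tumour against control and to -0.22 in tumour trained against tumour hearts. Without tumour 1 and 2, the log2 values of tumour against control were E2f1 -0.59, Mcm2 -0.11, Mcm3 -0.10, Mcm5 -0.26, Ccna2 -0.39, Ccnb2 -1.43, Foxm1 -0.74, Bub1b -0.06, Aurka -0.79, Aurkb -0.41, Kif20a -0.71, Tpx2 -1.05 and Top2a -0.36. Those of tumour trained against tumour were Mcm5 0.38, Cdc6 0.36, Foxm1 0.18, Bub1b 0.28, Aurka 0.18, Kif11 0.24, Kif20a 0.51, Tpx2 0.78, Mki67 0.32 and Top2a 0.05.

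Precision is limited by 3 libraries per group and, for mitotic genes outside tumour 1 and 2, by low counts. The fits without tumour 1 and 2 combined with other scalings, DESeq2 or a further library left out were added after seeing the data.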
